A study of Bos taurus and Ovis aries and Capra hircus with 27 samples.

Results

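The messenger RNA of goat liver was compared with that of goat libraries labelled kidney, in 3 libraries of each, which are 6 of the 27 libraries of the series. All were taken from indigenous goats of about 3 years of age, with no treatment named in the labels, and the study's methods describe 3 unrelated adult females per population from which several tissues each were taken. Levels are FPKM, that is, fragments scaled to transcript length and to all mapped fragments, which count a transcript relative to all others in its library. Of 22131 goat gene models, 12986 exceeded 0.5 FPKM in 3 or more of the 6 and were tested. The models carry identifiers and no gene names, so they are described here by the protein family whose signature their deposited protein holds, with the protein's length and, for the leading ones, its place in the goat assembly CHIR_1.0.

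The liver makes most of the proteins of blood plasma, among them clotting factors, protease inhibitors, complement and iron carriers. It also turns ammonia into urea, releases glucose during fasting and modifies drugs and steroids with cytochrome P450 enzymes. The kidney filters plasma and returns salt, sugar, phosphate and amino acids through transporters and channels of its tubules, which are lined by an epithelium joined by claudins. A tubule cell of the thick ascending limb makes uromodulin, and proximal tubule cells carry a giant endocytic receptor of the LDL receptor family. Lymphoid cells carry immunoglobulin and related receptor chains and receptors for chemokines.

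The label kidney was checked against families of this kind. The 1 model that joins EGF repeats to a ZP domain as uromodulin does, GOAT_ENSBTAP00000043345 (627 residues), was listed at 0 in the liver libraries, at 0 in libraries 1 and 2 labelled kidney and at 0.0727 FPKM in library 3. The longer of the giant LDL receptor models, GOAT_ENSBTAP00000005988 (4628 residues), had 0.179, 0.00829 and 0.0474 FPKM in the libraries labelled kidney. Neither reached the level for testing. The giant receptor signature, 12 or more class A repeats in a long protein, does not tell which receptor of the family a model is. The other giant receptor, GOAT_ENSBTAP00000017556 (4434 residues), had 46.8, 59.2 and 41.3 FPKM in liver and 12.7, 34.6 and 26.0 FPKM in the libraries labelled kidney, so it was higher in liver by 1.07 ± 0.37 (log2, SE; adjusted p = 0.0381, limma), a call that was lost without any 1 of liver replicates 1, 2 and 3 or replicates 1 and 3 of the other group (adjusted p up to 0.119).

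Channel, exchanger and junction families of renal epithelium were mostly low there as well. The 3 epithelial sodium or acid-sensing channel models summed to 0.0396, 0.345 and 0.192 FPKM in the libraries labelled kidney and to 0.224, 1.27 and 4.64 FPKM in liver, and none was tested. The 2 anion exchanger models summed to 1.70, 0.238 and 0.169 FPKM in the libraries labelled kidney and to 0.0885, 0.045 and 0.0403 FPKM in liver, against 20.9, 28.6 and 19.7 FPKM in goat heart. The 15 claudins summed to 24.7, 27.3 and 21.0 FPKM, which is below the 166, 90.5 and 124 FPKM of liver. Of those 15, 10 stayed under 0.5 FPKM in every library labelled kidney.

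Other families searched had members that were higher in the libraries labelled kidney than in liver. The 7 inward rectifier potassium channels summed to 1.48, 4.84 and 2.40 FPKM there, 0.351, 1.31 and 0.847 FPKM in liver and 101, 104 and 111 FPKM in heart, and the 1 tested, GOAT_ENSBTAP00000010914 (427 residues), was higher in the libraries labelled kidney (-0.81 ± 0.15, adjusted p = 0.00278). The model of the renal dipeptidase family, GOAT_ENSBTAP00000003655 (466 residues), had 5.31, 3.64 and 0.869 FPKM there and 0.0955, 0.224 and 0.147 FPKM in liver (-1.72 ± 0.42, adjusted p = 0.00947). Of 3 tested FXYD proteins, which regulate the sodium pump, 2 were higher in the libraries labelled kidney and 1 in liver. Of 3 tested ClC chloride channels, 1 was higher in the libraries labelled kidney and none was called in liver. Over all genes tested, 50.3% were called higher in the libraries labelled kidney and 13% in liver.

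In these 3 libraries the uromodulin-type model was at or near 0, and the claudin sum was below that of liver. The uromodulin-type model was at or near 0 in all 9 goat libraries, so whether it can be detected is not known. Its signature does not show that it is uromodulin. Searches for sodium-phosphate cotransporters and gamma-glutamyltransferases matched no model. The longer giant receptor model stayed under 0.5 FPKM there, but which receptor it is cannot be told. By contrast the renal dipeptidase model, the tested inward rectifier and 2 of 3 tested FXYD proteins were higher there than in liver. The same held for 2 of 3 tested models with a ZP domain. Of all genes tested, 50.3% were called in that direction, so such a call alone does not set a family apart. The inward rectifier (-0.81) lay near the median of all genes (-0.74). The uromodulin-type, giant receptor and inward rectifier lists were added after the values of the leading genes had been seen. These libraries are called the libraries labelled kidney throughout. What they hold was not tested, and no other tissue name is given to them. The 3 resembled one another as closely as the liver libraries did. Pearson's r over the tested genes was 0.912 to 0.971 among them, 0.918 to 0.969 among the liver libraries and 0.509 to 0.630 between the groups.

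**Figure D1:**
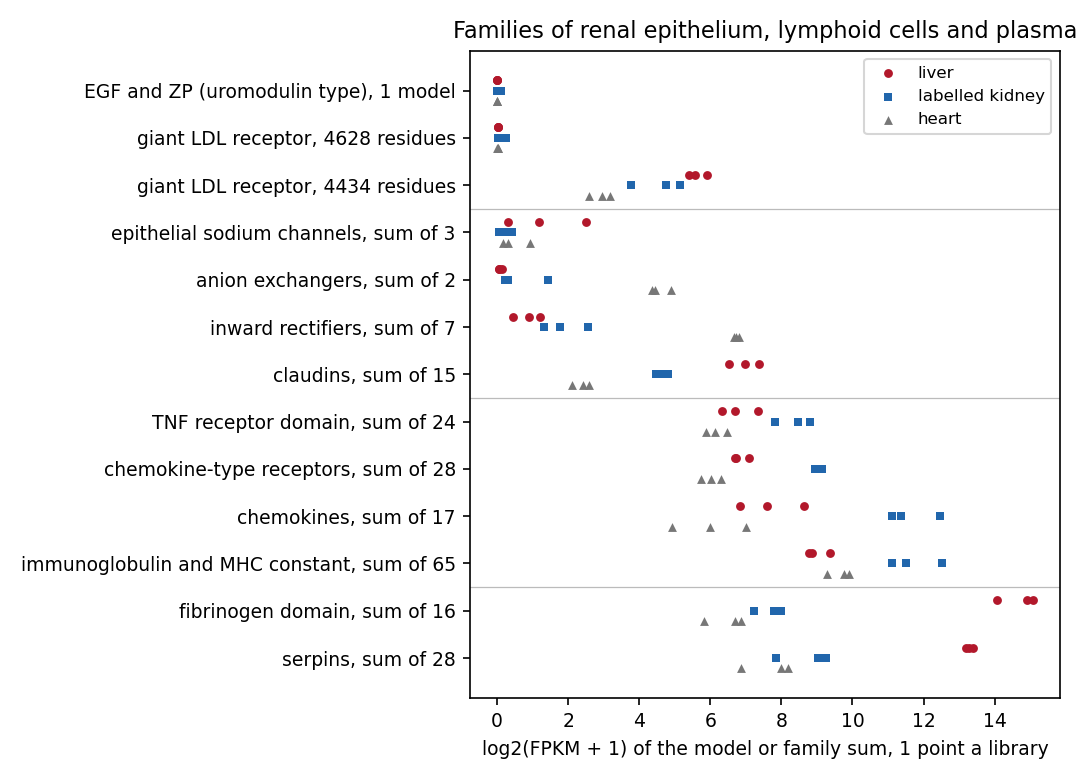
Level of renal-type models and families (upper 2 blocks), chemokines and lymphoid-type families (block below) and plasma families (lowest block) on the log2(FPKM + 1) scale. Each point is 1 library, with 3 libraries each of liver (red circles), labelled kidney (blue squares) and heart (grey triangles). The uromodulin-type model is at or near 0 in all 9 goat libraries, the chemokine sum is 2221 to 5611 FPKM in the libraries labelled kidney against 113 to 394 FPKM in liver, and the fibrinogen-domain sum is 17262 to 34640.2 FPKM in liver against 149.8 to 254 FPKM.

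Of the 12986 genes, 8224 differed at an adjusted p of at most 0.05 (63.3% of those tested), 1694 being higher in liver (13%) and 6530 higher in the libraries labelled kidney (50.3%). The median difference over all genes tested, liver minus labelled kidney, was -0.74 on the log2(FPKM + 1) scale, so small differences towards the libraries labelled kidney lie near the middle of the distribution. Median ratio scaling, which centres the libraries on a common median, brought the median difference to -0.03 and made the calls even, with 6471 genes called (49.8%), 3205 higher in liver (24.7%) and 3266 lower (25.2%). Large differences lay on the liver side under both scalings. Among called genes, 374 were higher in liver by at least 4 and 218 were lower by as much (480 and 97 under median ratio scaling). At a difference of at least 6 the numbers were 185 and 23, and at 8 they were 62 and 0. Tissues were sampled in bulk, so fewer cells of a type and less RNA per cell cannot be told apart in any of the differences below.

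**Figure D2:**
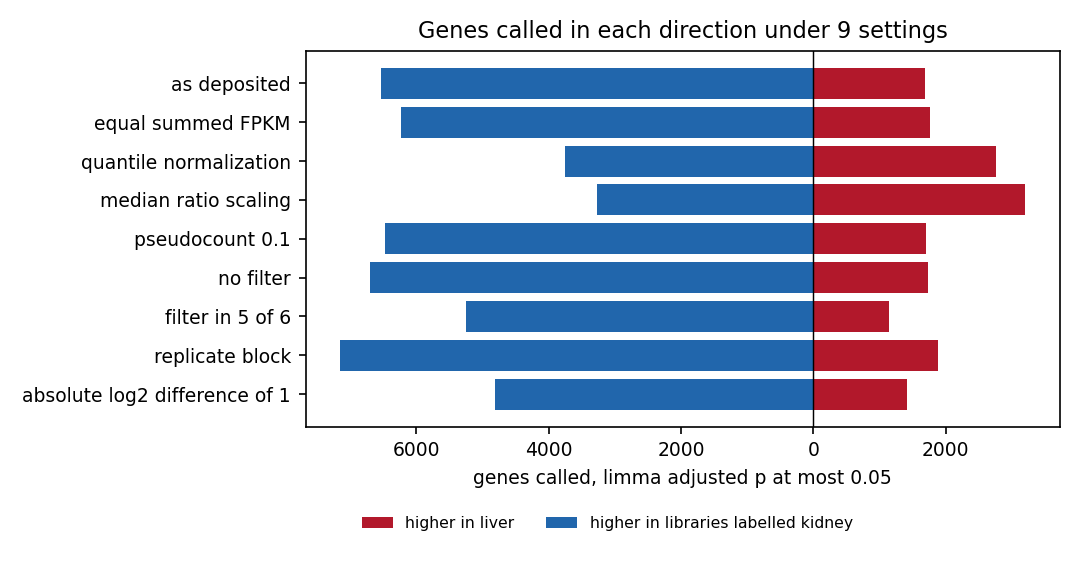
Number of genes called higher in liver (red, to the right) and higher in the libraries labelled kidney (blue, to the left) by limma at an adjusted p of at most 0.05 under 9 settings. The values as deposited give 1694 and 6530 calls, and median ratio scaling gives 3205 and 3266.

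Of the 15 leading genes on the liver side, 6 belonged to a plasma list and 9 to no list searched. Models with a fibrinogen-type C-terminal domain, the domain found at the end of the fibrinogen chains that form the clot, took 3.00%, 5.96% and 4.95% of the summed FPKM of the liver libraries and 0.0231%, 0.0351% and 0.0429% of the libraries labelled kidney. A cluster of 3 of them lay on scaffold 806 of CHIR_1.0. The first, GOAT_ENSP00000384552 (442 residues, 723357 to 730508, plus strand), had 6720, 16270 and 15550 FPKM in liver and 11.2, 10.4 and 5.0 FPKM in the libraries labelled kidney. The difference was 10.31 ± 0.45 (log2, SE; adjusted p = 6.43e-06). Its neighbour GOAT_ENSP00000306361 (781 residues, 745817 to 751470, plus strand) was at 5666 ± 2176 FPKM in liver (SD, n = 3) and 3.54 ± 2.06 FPKM in the other group, a difference of 10.33. The third, GOAT_ENSP00000306099 (489 residues, 770535 to 777844, minus strand), was at 8084 ± 2761 and 5.58 ± 3.06 FPKM, a difference of 10.34. The 3 differences were thus close to one another.

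Not every member of that family leaned to liver. All 12 tested models with the domain were called, 6 in each direction, with a median of 1.36 against -0.74 over all genes. The 50% lower is near the 50.3% of all genes, while the 50% higher compares with 13%. Under median ratio scaling 6 were higher and 5 lower. The member with the strongest difference the other way, GOAT_ENSBTAP00000012815 (441 residues), had 5.58, 4.21 and 9.49 FPKM in liver and 79.4, 125 and 176 FPKM in the libraries labelled kidney (-4.09 ± 0.38, adjusted p = 0.000117). The 6 higher in liver spanned 3.34 to 10.34 and the 6 lower spanned -4.09 to -0.61.

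Serpins, the inhibitors that trap proteases of clotting and inflammation, were also called in both directions. Of 21 tested, 10 were higher in liver and 7 lower, with a median of 0.37, and under median ratio scaling 11 and 3. GOAT_ENSBTAP00000009261-D2 (396 residues, scaffold 1665, 17933 to 24231, plus strand) had 3787, 4643 and 5076 FPKM in liver and 3.74, 2.76 and 0.857 FPKM in the libraries labelled kidney (10.44 ± 0.38, adjusted p = 3.36e-06). Its identifier marks a further copy of a gene, and how reads were divided between copies is not known. GOAT_ENSBTAP00000005713 (465 residues) was higher in liver by 9.11 ± 0.40. In the other direction, GOAT_ENSP00000415786 (409 residues) rose from 2.05 ± 0.305 FPKM in liver to 78.1 ± 16.6 FPKM (SD, n = 3), a difference of -4.68.

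Carriers and acute-phase proteins also included models far higher in liver. The transferrin GOAT_ENSBTAP00000009564 (704 residues), of the family that binds iron in plasma, had 8748, 5447 and 3936 FPKM in liver and 40.7, 57.1 and 32.5 FPKM in the other libraries (7.05 ± 0.38, adjusted p = 1.35e-05). GOAT_ENSP00000265132 (352 residues), which joins a lipocalin to a Kunitz inhibitor domain, had 5849, 4092 and 3493 FPKM against 6.13, 6.58 and 1.04 FPKM (9.83 ± 0.53). By contrast a short Kunitz model, GOAT_ENSBTAP00000023042 (97 residues), was at 2.15 ± 1.02 FPKM in liver and 192 ± 14.5 FPKM in the libraries labelled kidney (SD, n = 3). Of 7 tested Kunitz models 2 were higher in liver and 4 lower, and under median ratio scaling 3 and 3. The pentraxin GOAT_ENSP00000255030 (211 residues), of the family of C-reactive protein, was higher in liver by 8.72 ± 0.41 and the other 2 tested pentraxins were lower.

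Some acute-phase and carrier models varied strongly among the liver libraries themselves. Serum amyloid A, which the liver releases in inflammation, was represented by GOAT_ENSP00000278222-D4 (130 residues, a marked further copy) at 364, 9784 and 3596 FPKM in liver and 4.02, 1.21 and 0.839 FPKM elsewhere (9.74 ± 1.11, adjusted p = 0.000321). A second model of the family on the same scaffold, GOAT_ENSBTAP00000052221 (127 residues), had 6.63, 93.5 and 40.6 FPKM in liver and 3.10, 368 and 524 FPKM in the libraries labelled kidney and was not called (-1.57, adjusted p = 0.48). In both groups replicate 1 was the lowest for this model, and without replicate 1 of the labelled kidney it was called lower in liver (-3.82, adjusted p = 0.0164). The albumin-family model GOAT_ENSBTAP00000022763 (594 residues) had 11680 and 9247 FPKM in liver replicates 2 and 3, but it is listed at 0 in replicate 1. It was therefore not called (3.67 ± 3.37, adjusted p = 0.367) although its level was 8.11 higher in liver without that replicate (adjusted p = 0.000701). Its family neighbour GOAT_ENSP00000226355 (593 residues), on the same scaffold, had 99.1, 55.5 and 59.2 FPKM in liver and 0.0381, 0.315 and 0 FPKM in the other group.

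Complement and the vitamin K and kringle proteases showed the same lean. MACPF proteins punch holes in membranes, as terminal complement does in plasma and perforin does for killer cells. All 6 tested models were called, 4 higher in liver by 6.24 to 8.92 and 2 lower by 2.46 and 3.07, and their median was 6.62. The largest on the liver side, GOAT_ENSBTAP00000021495 (548 residues), had 1026, 1127 and 777 FPKM in liver and 1.37, 1.73 and 0.233 FPKM in the other libraries. The strongest the other way, GOAT_ENSBTAP00000001336 (554 residues), had 1.38, 0.321 and 0.788 FPKM in liver and 15.7, 15.2 and 11.3 FPKM in the libraries labelled kidney. Kringle proteins, among which are plasminogen and prothrombin, had 5 of 9 tested members higher in liver and none called lower (median 1.99), led by GOAT_ENSBTAP00000049470 (792 residues) at 9.22 ± 0.35. Of 4 tested Gla-domain proteins, which need vitamin K, 3 were higher in liver and none was called lower. Cystatins, inhibitors of cysteine proteases, did not share this lean. GOAT_ENSP00000265023 (619 residues) was higher in liver by 7.85 while GOAT_ENSP00000381448 (127 residues) had 177, 144 and 173 FPKM in liver against 4188, 1668 and 1440 FPKM.

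**Figure D3:**
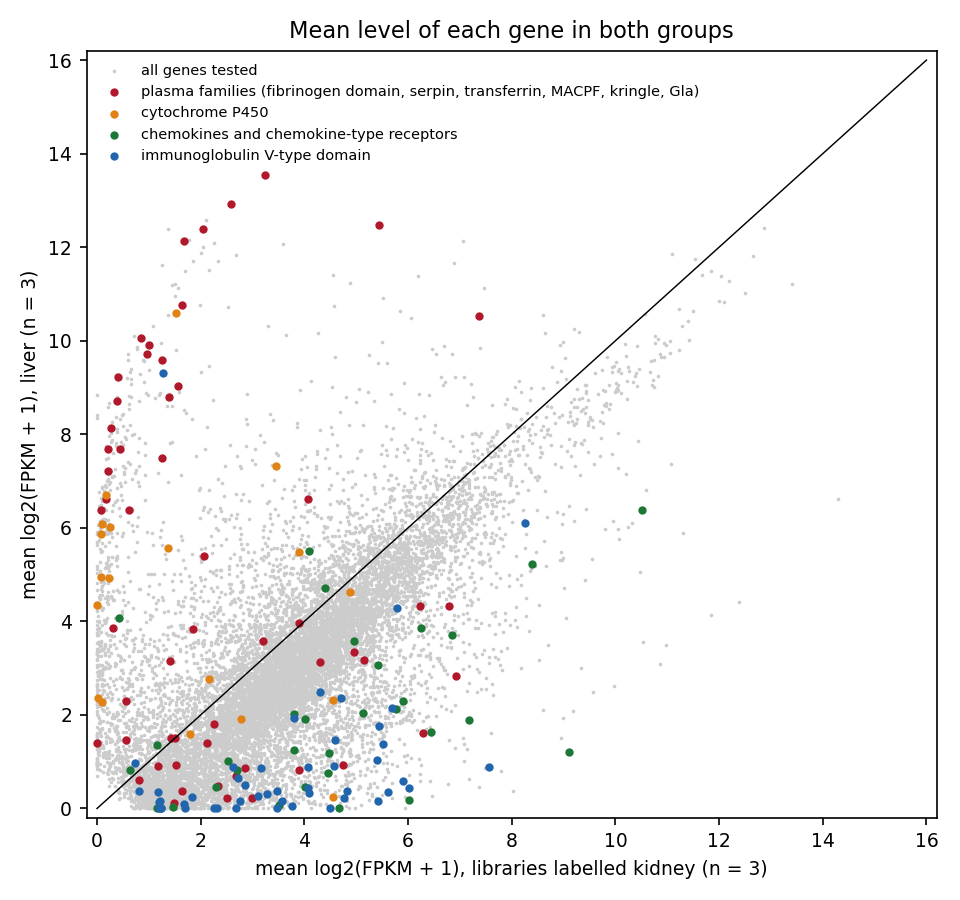
Mean log2(FPKM + 1) of each of the 12986 tested genes in the 3 libraries labelled kidney (horizontal) and in the 3 liver libraries (vertical), with the line of equal level and families in colour. Plasma-family models (red) reach an arithmetic mean of 12846 FPKM in liver at 8.85 FPKM in the other group, while chemokine, chemokine-type receptor and immunoglobulin V-type models (green and blue) lie mostly below the line.

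The models of urea cycle enzymes named here were each higher in liver. The carbamoyl phosphate synthase GOAT_ENSBTAP00000022158 (1506 residues), the type that begins the cycle in mitochondria, had 1157, 1208 and 583 FPKM in liver and 1.11, 1.06 and 0.146 FPKM in the libraries labelled kidney (9.09 ± 0.38, adjusted p = 5.67e-06). The carbamoyltransferase GOAT_ENSBTAP00000001947 (336 residues), of the family that forms citrulline, was higher in liver by 6.20 ± 0.41 and argininosuccinate synthase GOAT_ENSBTAP00000027649 (412 residues) by 7.01 ± 0.32. The synthase did not vanish from the other group, where it had 11.2, 8.04 and 7.62 FPKM. GOAT_ENSBTAP00000020365 (494 residues), of the superfamily of argininosuccinate lyase, was at 116 ± 56.0 FPKM in liver and 6.07 ± 1.04 FPKM in the other group (3.92 ± 0.40). Arginase, which releases urea, was represented by GOAT_ENSBTAP00000016461 (323 residues) at 525, 827 and 687 FPKM in liver against 0.716, 0.708 and 0.337 FPKM (8.73 ± 0.25, adjusted p = 2.21e-06). The second model of the arginase family, GOAT_ENSBTAP00000042200 (292 residues), was higher in liver by 6.07 ± 0.27.

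Enzymes that build glucose also stood higher in liver. The phosphoenolpyruvate carboxykinase GOAT_ENSBTAP00000002520 (630 residues) had 909, 1004 and 209.9 FPKM in liver and 0.728, 0.771 and 0.282 FPKM in the libraries labelled kidney (8.52 ± 0.58, adjusted p = 3.16e-05). The other carboxykinase, GOAT_ENSBTAP00000015834 (631 residues), was at 186 ± 37.9 and 5.51 ± 0.277 FPKM (SD, n = 3), a difference of 4.83. Kidney cortex is known as the second organ that builds glucose, and both enzymes were low in the libraries that carry its name. The fructose bisphosphatase GOAT_ENSBTAP00000012835 (349 residues) had 682, 275 and 124 FPKM in liver and 25.3, 19.1 and 4.86 FPKM in the other group, a difference of 4.30 ± 0.75. Class I aldolases were divided. GOAT_ENSBTAP00000020413 (366 residues) was higher in liver by 9.46 ± 0.50, whereas GOAT_ENSP00000378669 (416 residues), at 67.7 ± 9.11 FPKM in liver and 152 ± 36.6 FPKM in the libraries labelled kidney, was lower by 1.14 (adjusted p = 0.00854) and was not called under median ratio scaling (-0.28, adjusted p = 0.356).

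Cytochrome P450 enzymes, which oxidize drugs, steroids and fatty acids, had 12 of 19 tested members higher in liver by 1.59 to 9.08 and 3 lower, with a median of 3.87. The first of them, GOAT_ENSBTAP00000024437 (495 residues), had 2502, 1312 and 1116 FPKM in liver and 2.71, 3.10 and 0.533 FPKM in the other group (9.08 ± 0.47, adjusted p = 1.15e-05). GOAT_ENSP00000384972 (349 residues) ran the other way, with 0.215, 0.201 and 0.147 FPKM in liver and 43.9, 21.1 and 12 FPKM in the libraries labelled kidney (-4.30 ± 0.42, adjusted p = 0.000157). UDP-glucuronosyltransferases, which attach a sugar acid to drugs and bilirubin, had 4 of 5 members higher in liver and 1 lower, led by GOAT_ENSP00000418532 (533 residues) at 6.67 ± 0.36. Carboxylesterases, which split esters, had 3 of 4 higher in liver and none called lower (median 5.40).

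The aldo-keto reductases, which reduce sugars and steroids, had 7 of 15 higher in liver and 1 lower, and 11 and 1 with the replicate number as a block. The lower one, GOAT_ENSBTAP00000013082-D3 (320 residues, a marked further copy), had 3.53, 4.89 and 8.72 FPKM in liver and 58.7, 71.3 and 119 FPKM in the other group. The zinc alcohol dehydrogenase GOAT_ENSP00000426083 (370 residues) was uneven within liver, at 1037, 19.9 and 14.8 FPKM. Its difference of 4.85 ± 1.48 was called (adjusted p = 0.0228), but not without replicate 2 or 3 of the labelled kidney (adjusted p = 0.0529 and 0.0649). The aromatic amino acid hydroxylase GOAT_ENSP00000303500 (451 residues), of the family that starts the breakdown of phenylalanine, had 1076, 932 and 454 FPKM in liver and 1.70, 1.09 and 0.104 FPKM elsewhere.

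Fatty acid oxidation differed more evenly from gene to gene. All 6 thiolases, which cleave the shortened acid, were higher in liver, by 1.82 to 4.32 with a median of 3.26. All 5 acyl-CoA dehydrogenases, which take the first step, were higher by 1.54 to 4.60 with a median of 2.82. The thiolase GOAT_ENSP00000360569 (534 residues) had 854, 541 and 356 FPKM in liver and 52.2, 65.1 and 62.6 FPKM in the other group, and the dehydrogenase GOAT_ENSP00000349297 (663 residues) was at 192 ± 32.8 against 44.0 ± 7.08 FPKM (SD, n = 3). HMG-CoA synthases make ketone bodies in mitochondria and sterol precursors in the cytosol. GOAT_ENSP00000358414 (508 residues) had 386, 161 and 44.0 FPKM in liver and at most 0.232 FPKM in the other group (6.93 ± 0.69), while GOAT_ENSBTAP00000036625 (546 residues), at 35.5 ± 35.7 and 22.4 ± 6.42 FPKM, was not called (0.24, adjusted p = 0.746).

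Proteins with a peroxisomal signal at their C-terminus were called in both directions, 25 of 53 higher in liver and 17 lower, with a median of 0.57. Under median ratio scaling they were 30 and 9. Mitochondrial carriers, which move metabolites over the inner membrane, had 8 of 20 higher in liver and 8 lower, and 11 and 4 under median ratio scaling. AMP-binding acyl-CoA synthetases, which activate fatty acids, had 10 of 18 higher in liver and 5 lower, and 10 and 3 under median ratio scaling.

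Among lymphoid-type lists, the V-type, ITAM, receptor and TNF receptor ones were chosen after the values of leading genes had been seen. Of 49 tested models with an immunoglobulin V-type domain, as in antibody and T cell receptor chains, 44 were higher in the libraries labelled kidney. That is 89.8%, against 50.3% of all genes. In liver 1 was higher, and the median was -2.61. Median ratio scaling left 42 (85.7%, against 25.2% of all genes) and 1, and a median of -2.20. GOAT_ENSBTAP00000042747 (240 residues, scaffold 793, 1479882 to 1559852, minus strand), which holds the constant-domain signature shared by immunoglobulins and MHC proteins, had 4179, 788 and 312 FPKM in the libraries labelled kidney and 16.6, 3.52 and 1.85 FPKM in liver (-7.37 ± 1.02, adjusted p = 0.000768). The V-type model goat_GLEAN_10020747 (126 residues) had 1096, 90.4 and 67.0 FPKM against 3.91, 0.314 and 0 FPKM (-6.67 ± 1.09). Both were highest in replicate 1 of each group. The V-type model higher in liver, goat_GLEAN_10016394 (173 residues), had 1143, 486 and 454 FPKM in liver and 1.93, 3.02 and 0.183 FPKM in the other group (8.04 ± 0.54, adjusted p = 2.96e-05). Of 48 tested models with the constant-domain signature, 30 were higher in the libraries labelled kidney (62.5%, against 50.3% of all genes) and 5 in liver, and under median ratio scaling 23 and 10. Of 63 tested models with an ITAM motif, the signalling motif of antigen receptor chains, 34 were higher in the libraries labelled kidney (54.0%) and 8 in liver (12.7%), close to the 50.3% and 13% of all genes, and under median ratio scaling 25 and 13.

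Chemokines, the small proteins that direct the movement of white blood cells, had 9 of 13 tested members higher in the libraries labelled kidney by 1.87 to 7.88 and 1 higher in liver (median -3.17). The 9 are 69.2% of those tested, against 50.3% of all genes. Calls were 7 (53.8%, against 25.2% of all genes) and 1 under median ratio scaling and 12 and 1 with the replicate number as a block. GOAT_ENSBTAP00000016926 (94 residues, scaffold 143, 1973309 to 1977446, minus strand) had 476, 743 and 464 FPKM there and 0.711, 3.35 and 0.692 FPKM in liver (-7.88 ± 0.42, adjusted p = 1.25e-05). A more abundant one, GOAT_ENSBTAP00000013399 (69 residues), had 1505, 1128 and 1854 FPKM against 142, 37.0 and 107 FPKM in liver, where it was thus not absent (-4.13 ± 0.51).

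Receptors of chemokine type leaned the same way. Of 18 tested seven-span receptors with the chemokine-receptor form of the conserved motif, 14 were higher in the libraries labelled kidney and 1 in liver (median -2.12). The 14 are 77.8%, against 50.3% of all genes. Under median ratio scaling the numbers were 12 (66.7%, against 25.2% of all genes) and 2. GOAT_ENSP00000386884 (357 residues) had 208, 141 and 102 FPKM in the former and 2.84, 2.67 and 2.70 FPKM in liver (-5.28 ± 0.29, adjusted p = 1.40e-05). The exception, GOAT_ENSBTAP00000022540 (359 residues), had 35.1, 45.3 and 54.3 FPKM in liver and 13.9, 23.0 and 12.6 FPKM in the other group. Of 15 tested proteins with the cysteine-rich domain of TNF receptors, 11 were higher in the libraries labelled kidney (73.3%) and 2 in liver (median -1.68). Under median ratio scaling the numbers were 9 (60%) and 2. Those higher in the libraries labelled kidney were led by GOAT_ENSBTAP00000019595 (248 residues), which had 42.4, 33.2 and 14.5 FPKM there and at most 0.285 FPKM in liver.

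**Figure D4:**
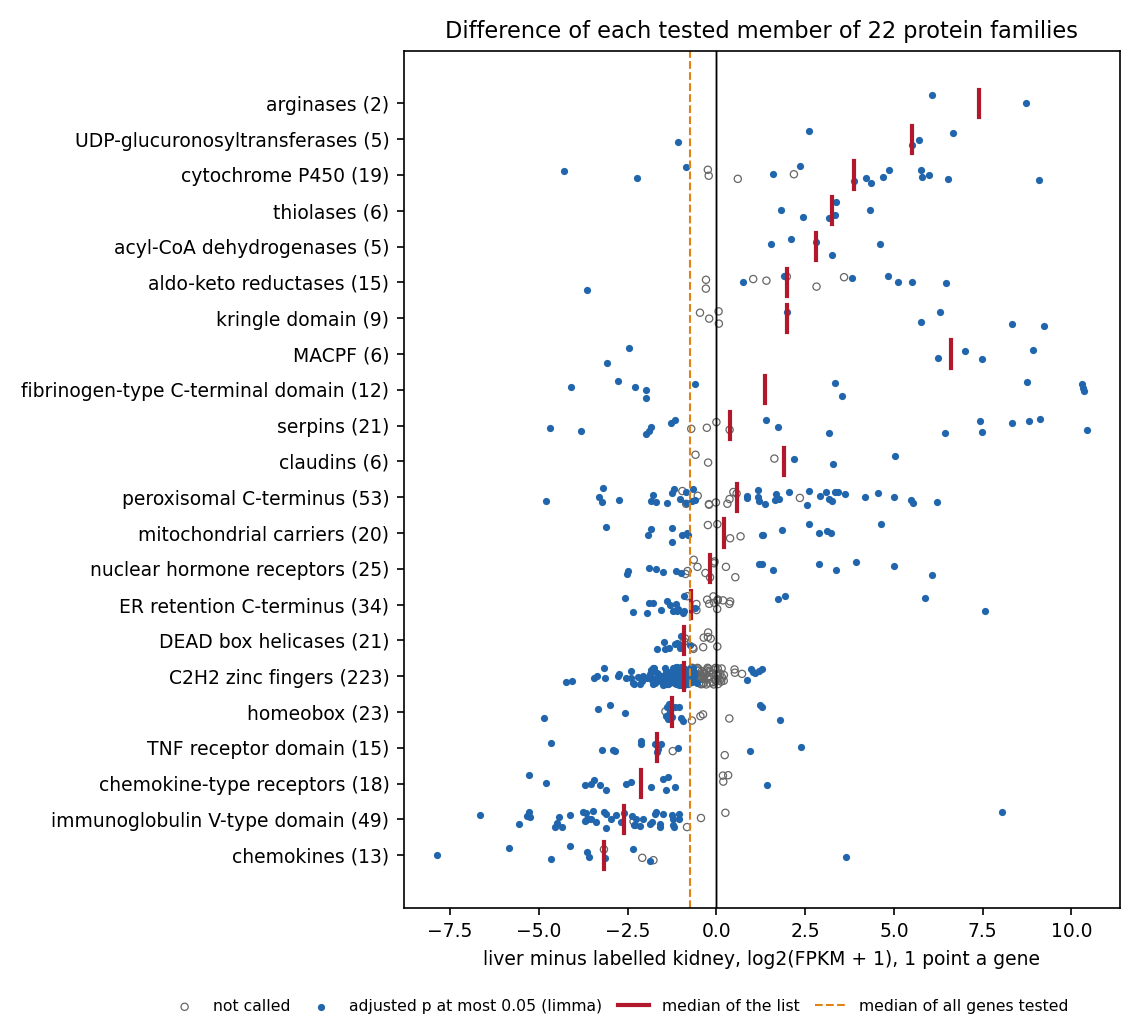
Difference between liver and the libraries labelled kidney on the log2(FPKM + 1) scale for each tested member (points, filled where called) of 22 protein families, with the number tested in parentheses, each family's median (red bar) and the median of all genes tested, -0.74 (dashed line). Family medians run from 7.40 for the 2 arginases to -3.17 for the 13 chemokines, and single members such as the V-type model at 8.04 lie far from their family.

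Families of membrane transport were called in both directions. Of 5 tested aquaporins, 2 were higher in liver and 2 lower (3 and 1 under median ratio scaling), led by GOAT_ENSP00000219660 (247 residues), which had 181, 86.0 and 85.3 FPKM in liver and was listed at 0 in libraries 2 and 3 labelled kidney. Of 14 tested transporters of the sugar and organic ion type, 4 were higher in liver and 7 lower, a share near the 50.3% of all genes, and under median ratio scaling 4 and 3, with GOAT_ENSBTAP00000007085 (519 residues) at 144 ± 63.6 FPKM in liver and 0.23 ± 0.206 FPKM in the other group (SD, n = 3). The gap junction protein GOAT_ENSP00000354900 (284 residues) was higher in liver by 7.39 ± 0.26. P-type ATPases, the ion and lipid pumps, had 14 of 22 tested members higher in the libraries labelled kidney (63.6%, against 50.3% of all genes) and 2 in liver, and under median ratio scaling 10 and 3. Sodium-dependent symporters of the SLC6 type had 3 of 3. Of 4 sodium-solute symporters, the family that recovers glucose in the tubule, 2 were higher in liver and 1 lower, and under median ratio scaling 3 and 1.

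Zinc finger and homeobox regulators of transcription were mostly higher in the libraries labelled kidney in the main test. For zinc finger proteins this did not hold under median ratio scaling. Of 223 tested proteins with at least 3 C2H2 zinc fingers, 156 were higher there and 6 in liver. The share higher there lay above the 50.3% of all genes, while the median of -0.91 lay near their -0.74. Under median ratio scaling 77 were higher there (34.5%, against 25.2% of all genes) and 17 in liver. Of 23 tested homeobox proteins 15 were higher there (65.2%) and 3 in liver. Under median ratio scaling the numbers were 12 (52.2%) and 3. Only 2 of 8 paired box models, which shape organs and B cells during development, were tested. Of these, GOAT_ENSP00000350844 (370 residues) had 10.3, 8.61 and 5.31 FPKM in the libraries labelled kidney and at most 0.107 FPKM in liver (-3.04 ± 0.25, adjusted p = 6.82e-05, limma). The other tested model was called higher in liver, by 0.86. Nuclear hormone receptors, which answer to steroids, bile acids and fatty acids, had 8 of 25 higher in liver and 7 lower, and 10 and 4 under median ratio scaling.

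Calls in 2 of 3 lists of machinery that every cell uses changed with the scaling. Among DEAD box helicases, which unwind RNA, 11 of 21 were higher in the libraries labelled kidney (52.4%, near the 50.3% of all genes). None was called higher in liver. Under median ratio scaling 2 were higher in the libraries labelled kidney and 1 in liver. Of 34 tested proteins kept in the endoplasmic reticulum by their C-terminus, 4 were higher in liver (11.8%) and 17 lower (50%). These shares were near the 13% and 50.3% of all genes. Under median ratio scaling the list changed sides, to 11 and 4. The proteasome core moved little, from 1 of 10 higher in liver and 4 lower to 1 and 3. An abundant model with the endoplasmic reticulum signal, GOAT_ENSBTAP00000020111 (396 residues), had 677, 713 and 1058 FPKM in liver. In the libraries labelled kidney it had 563, 1116 and 1238 FPKM. It was not called by limma under either scaling (-0.20, adjusted p = 0.667, and 0.67, adjusted p = 0.147).

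The strongest differences included models whose family could not be given. GOAT_ENSBTAP00000022658 (69 residues), which matched no signature searched, had the largest difference among the 15 leading genes on the liver side, with 2116, 8321 and 8627 FPKM in liver and 4.64, 2.08 and 0 FPKM in the other group (11.01 ± 0.76, adjusted p = 3.37e-05). GOAT_ENSP00000376795 had no deposited protein here and was higher in liver by 10.49 ± 0.43. On the other side, GOAT_ENSP00000374859 and GOAT_ENSP00000418294, also without a protein here, were among the leading genes. The former had 52610, 25630 and 5942 FPKM in the libraries labelled kidney and 201, 112 and 40.9 FPKM in liver (-7.66 ± 0.88, adjusted p = 0.000342). The latter had 10320, 11440 and 1295 FPKM against 43.8, 23.8 and 7.92 FPKM (-7.96 ± 0.94). A 400-residue model, GOAT_ENSP00000348170, had 28350 and 27020 FPKM in liver replicates 2 and 3 but 17.3 FPKM in replicate 1, and 14.2, 29.7 and 54.5 FPKM in the other group. It was not called (6.35 ± 2.65, adjusted p = 0.0693), but was called with the replicate number as a block (adjusted p = 0.014) and without liver replicate 1 (9.87, adjusted p = 8.02e-05).

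Proteins of secreted form had a wider spread of differences than the rest. Of 10590 tested genes with a deposited protein, 740 had a hydrophobic stretch at the N-terminus and no other, the form of a secreted protein. In this class 22.2% were higher in liver and 44.7% lower, against 13% and 50.3% over all genes. Under median ratio scaling these were 32.4% and 27.7%, against 24.7% and 25.2%. The share lower in liver was then above that of all genes, so its side depends on the scaling. A difference of at least 4 towards liver was found in 10.5% of the class and one towards the libraries labelled kidney in 5%, against 2.89% and 1.68% over all genes. The SD of the differences was 3.00 in the class and 1.82 over all genes. Proteins with neither a hydrophobic N-terminus nor a membrane segment, 6725 genes, were at 10.6% and 51.8%, with 1.67% and 1.01% at a difference of at least 4. Under median ratio scaling 22.2% of them were higher in liver and 24.0% lower.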

How the data were processed

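Libraries were strand-specific (dUTP) per the labels. According to the study's methods, reads were mapped with TopHat to CHIR_1.0 and quantified with Cufflinks (version 2.2.1 in the submitters' processing notes, which list only the cattle build UMD3.1, for goat samples too). The authors deposited values on the log2 scale, log2(FPKM + 1), and a file of goat proteins. FPKM was recovered by undoing the logarithm. The tables give no counts, so depth is unknown and no counting interval is given. Genes above 0.5 FPKM in at least 3 of 6 libraries were tested with limma 3.58.1 (R 4.3.3, eBayes with trend) on log2(FPKM + 1), pseudocount 1, with Benjamini-Hochberg adjustment over all 12986 genes and a threshold of 0.05. FPKM is relative, so abundant transcripts lower all others. An exact permutation test of 3 against 3 cannot go below 0.1.

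The members and lists were chosen with earlier results of these data known. Lists planned by gene symbol could not be used because no goat model could be matched to a symbol. In their place 81 lists of protein signatures were searched in the deposited proteins, present for 18215 of 22131 models (82.3%). The renal-type and lymphoid-type lists were added after the values of the leading genes had been seen. A signature can miss members and can match proteins outside its family. Named genes were the 15 with the largest difference each way at a mean of at least 10 FPKM, the 10 highest of each group, up to 8 of each list and the members called against their list. Of these a selection is printed, made after the values were seen.

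Same-numbered liver and labelled kidney libraries deviated together from their group means (r = 0.40, 0.15 and 0.44), while differently numbered ones had r from -0.41 to 0.071. Deviations from a mean of 3 libraries sum to 0, so these values are not independent of one another. The replicate number was used as a block only in alternative fits, and the main test did not use it. On simulated data for this comparison, 200 of 12986 genes were changed, far fewer than the 8224 called in the data. A simulated log2 change of 2 was recovered for 69.5% of the changed genes and a change of 1 for 0%. The p-value needed for a call depends on how many genes change, so these shares do not carry over to the data. The labels do not tie libraries to animals, but the study's methods describe 3 unrelated females per population, each giving several tissues. The p-values measure only the spread between these libraries, in which animals and technical steps cannot be told apart. Of the libraries' genes, 52.7% to 53.0% were above 0.5 FPKM in liver and 57.0% to 58.4% in the libraries labelled kidney. The 10 highest genes took 11.7% to 19.1% and 11.4% to 18.8% of the summed FPKM.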

Additional observations from a re-analysis of the deposited data

How the results depend on the processing

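The number of genes called (8224) stayed within 1.5 times under every alternative run, from 6227 to 9034, and none of those genes was called in the opposite direction under any. The share of calls higher in liver was 20.6%. It became 49.5% under median ratio scaling, 42.3% under quantile normalization and 49.4% under median ratio scaling with the replicate block, an alternative chosen after seeing the data. The median difference over all genes moved from -0.74 to -0.0304 under median ratio scaling, with or without the block, to -0.17 under quantile normalization, to -0.89 with a pseudocount of 0.1 and to -0.46 with no filter. These scalings centre the libraries by construction. Median ratio scaling kept 4959 of the 8224 calls. The replicate block alone gave 9034 calls, 1877 higher in liver and 7157 lower. Of 58 families with at least 3 genes tested, 20 had more calls in liver and 34 in the libraries labelled kidney. Under median ratio scaling they were 29 and 20, and with the block added 31 had more in liver. With 1 library left out at a time, calls ranged from 6709 to 8287, the share from 19.3% to 22.8% and the median from -0.83 to -0.66.

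Of 1087 pairs of named gene and alternative, 1067 kept direction and side of the threshold. Reversals concerned uncalled genes. GOAT_ENSBTAP00000020111 went from -0.20 to 0.67 under median ratio scaling, with or without the block, and ranged from -0.56 to 0.0116 with 1 library left out, being above 0 without labelled kidney replicate 3. GOAT_ENSBTAP00000036625 (0.24) ranged, with 1 library left out, from -0.52 without liver replicate 1 to 0.63. The block changed the call of GOAT_ENSP00000348170, of the metallothionein model and of 1 globin model among printed genes. The alternatives on matching goat proteins to named genes were not run, since no named proteins were available for matching here. Depth is unknown, so the counting error of low levels cannot be stated.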

Other observations

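Genes high in 1 group and low in the other were compared with heart. Of the tested genes, 126 had at least 100 FPKM in every liver library and a mean in the libraries labelled kidney under 1% of that of liver. Their level in the libraries labelled kidney was a median of 0.139%, 0.173% and 0.0533% of the same-numbered liver library, and 5, 6 and 16 of them were listed at 0. In goat heart the median was 0% for each of the 3 numbers, with 82, 64 and 74 of the 126 listed at 0. The arginase GOAT_ENSBTAP00000016461, for example, had 0.716, 0.708 and 0.337 FPKM in the libraries labelled kidney and 0 FPKM in heart replicate 1.

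In the other direction 17 genes qualified. Their level in liver was a median of 0.423%, 0.356% and 0.661% of the same-numbered library labelled kidney, with none listed at 0. In heart the medians were 0.0207%, 0.0183% and 0.0244%. The cause of these low levels was not tested.

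A value of 0 stood beside high values in the same group in 2 models whose group median was at least 100 FPKM. One was the albumin-family model GOAT_ENSBTAP00000022763, at 0, 11680 and 9247 FPKM in liver. The other, GOAT_ENSBTAP00000048739, was at 0, 221 and 407 FPKM in the libraries labelled kidney.

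Globin models, a sign of red blood cells, summed to 208, 68.8 and 73.3 FPKM in the libraries labelled kidney and to 6.97, 0.786 and 0.621 FPKM in liver. Of 2 tested, 1 was higher in the libraries labelled kidney, and 2 were with the replicate number as a block. Replicate 1 had the highest sum in both groups. The metallothionein model GOAT_ENSBTAP00000034269 had 46.0, 2398 and 855 FPKM in liver and 14.1, 137 and 288 FPKM in the libraries labelled kidney. It was not called without the block (2.44 ± 1.59, adjusted p = 0.212) and was called higher in liver with it (adjusted p = 0.00556).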
